A study of Mus musculus with 8 samples.

Results

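The genes described here are 39 microglia and macrophage genes, taken from a list of symbols of this cell lineage. Each was matched to the row of the deposited table that carries its symbol, and all 39 were found among 56465 features. They were measured in 8 retinas, each collected 4 days after the retina had been detached by a subretinal injection of 10 µl of sodium hyaluronate. A group of 4 retinas came from wild-type mice (WT, replicates 3, 4, 5 and 7) and a group of 4 from mice expressing human transferrin (TG, replicates 2, 5, 6 and 8). All mice carry the strain label C57Bl/6J. The sources used here give no age, no promoter of the transgene and no statement on pooling. All 8 retinas were detached, so TG against WT is the comparison of the design, and no undetached retina enters it. WT held 3 males and 1 female (replicate 7), and TG held 2 males (replicates 2 and 5) and 2 females. Right eyes made up 3 of 4 in WT and 2 of 4 in TG. Whether every retina is from a different animal is not stated, so the p-values refer to the variation among these 8 samples, which could be technical in part.

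Microglia are the resident immune cells of the retina. They are kept alive by signals through the receptor Csf1r and, at rest, display a set of surface proteins that includes the ADP receptor P2ry12, the fractalkine receptor Cx3cr1 and Tmem119. When photoreceptors lose contact with the pigment epithelium and die, microglia and macrophages recruited from the blood move to the outer retina and take up debris, and a phagocytic state of these cells is marked by genes such as Trem2, Axl, Itgax, Clec7a, Gpnmb, Spp1 and Cd68. Transferrin binds iron in plasma and tissue fluid. The series title names its protective effect in detachment as the subject of the study.

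Libraries held 61535690 to 75866423 counted reads. Mitochondrial genes took 21.9% to 27.5% of them in WT and 20.4% to 22.3% in TG, and the part of this in the results was not tested. Values below are normalized reads, meaning reads of a gene divided by a size factor of its library. Markers of Mueller glia, the radial glia of the retina, summed to 222900 to 352000 normalized reads, and P2ry12, Tmem119 and Cx3cr1 were found in every library, so the tissue label and the presence of microglia RNA match the reads. WT 3 stood apart for pigment epithelium markers, which summed to 102400 there. In the rest of WT the sum was 4763 to 13440, and in TG it was 7428 to 44970. WT 3 and TG 6 stood apart for lens markers, at 24630 and 20120, against 35.9 to 5155 in the other libraries. Where leaving out WT 3 moved the log2 fold change of a gene of the microglia and macrophage list by over 1.5 times, the value without it is given. For genes of the other lists named below, values without WT 3 are not given, and how far they depend on WT 3 was not tested.

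Nearly the whole list lay higher in TG, and no single gene passed the test. Of 39 genes, all of which passed the filter on low values (a mean of at least 10 over the 8 libraries), 37 had a positive log2 fold change and 2 a negative one, Ptprc and Lcp1, the latter at 0.01 with upper-quartile scaling. Among all 19798 features tested, 47.8% had a positive one. The 39 genes were measured in the same 8 libraries and are not independent, so this count is a description and not a test. The median log2 fold change of the list was 0.41, against -0.02 over all features. By limma with Benjamini-Hochberg adjustment over all features, 0 of the 39 passed an adjusted p of 0.05, a threshold that 0.0101% of all features passed, and the lowest adjusted p in the list was 0.918. At an unadjusted p under 0.05, 7 were higher in TG and 0 lower, where 2.02% of all features were higher and 4.64% passed in either direction. On the recovered reads, edgeR and DESeq2 likewise called 0 of the 39 at an adjusted p of 0.05, where they called 2 and 16 of all features. The groups did not overlap for 3 genes, all with TG higher, against 1.36% of all features. Because these are whole retinas, more cells of this lineage and more RNA per cell cannot be told apart.

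**Figure D1:**
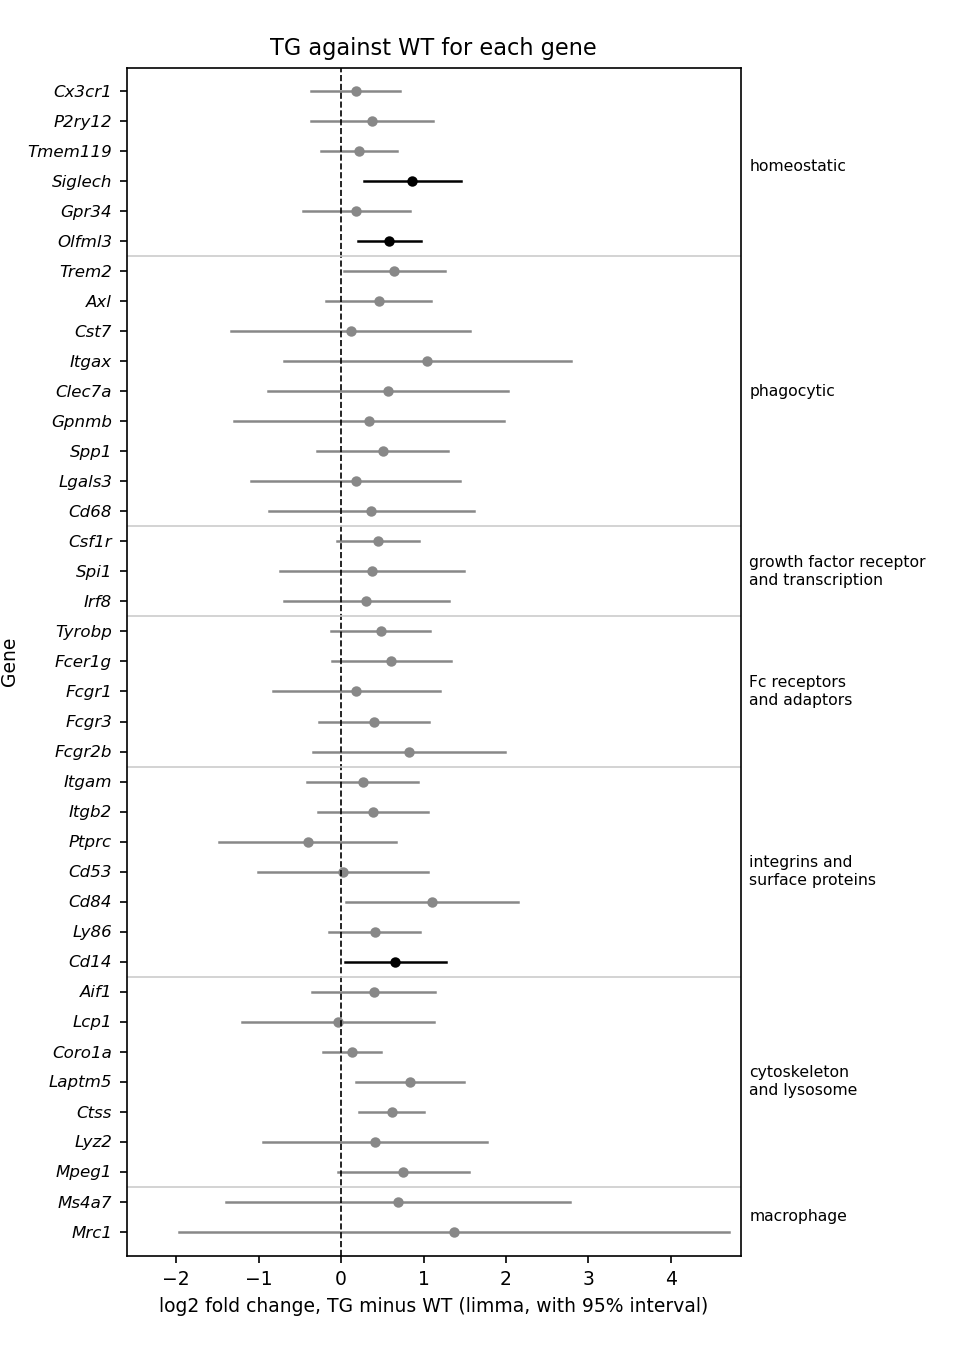
Log2 fold change (TG minus WT, x axis, limma) of each of the 39 genes (rows, grouped by role), with points for the estimate and bars for the 95% interval. Black marks the 3 genes whose groups did not overlap (Siglech, Olfml3 and Cd14), and 37 of 39 points lie right of the dashed line at 0.

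The list's difference varied with single TG libraries. TG 5 was the highest of the 8 libraries for 30 of 39 genes, where it was the highest for 9.65% of all features, and it lay above the WT maximum for 34 genes. TG 8 was the lowest for 17 of 39, against 14.8% of all features, and lay below the WT minimum for 17 genes. On the log2(value + 1) scale, the mean deviation of the 39 genes from their own means over the 8 libraries was 1.10 in TG 5, 0.41 in TG 2, 0.26 in TG 6 and -0.86 in TG 8. In WT it was 0.36 in WT 3, -0.23 in WT 7, -0.47 in WT 5 and -0.59 in WT 4. The TG mean was 0.23 ± 0.81 (SD, n = 4) and the WT mean was -0.23 ± 0.42 (SD, n = 4), so the groups overlapped. Without TG 5, 29 genes lay higher in TG and the median log2 fold change was 0.17. Without TG 8, all 39 lay higher, the median was 0.74, and 22 genes had an unadjusted p under 0.05, where 1.76% of all features did. Without WT 3 the median was 0.60 with 37 genes higher and 12 at an unadjusted p under 0.05, against 2.08% of all features, and without both TG 5 and TG 8 it was 0.48 with 35 higher. At an unadjusted p under 0.05 there were 3 genes without TG 5 and 4 each without TG 2 or WT 4, against 2.11%, 1.84% and 1.33% of all features.

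**Figure D2:**
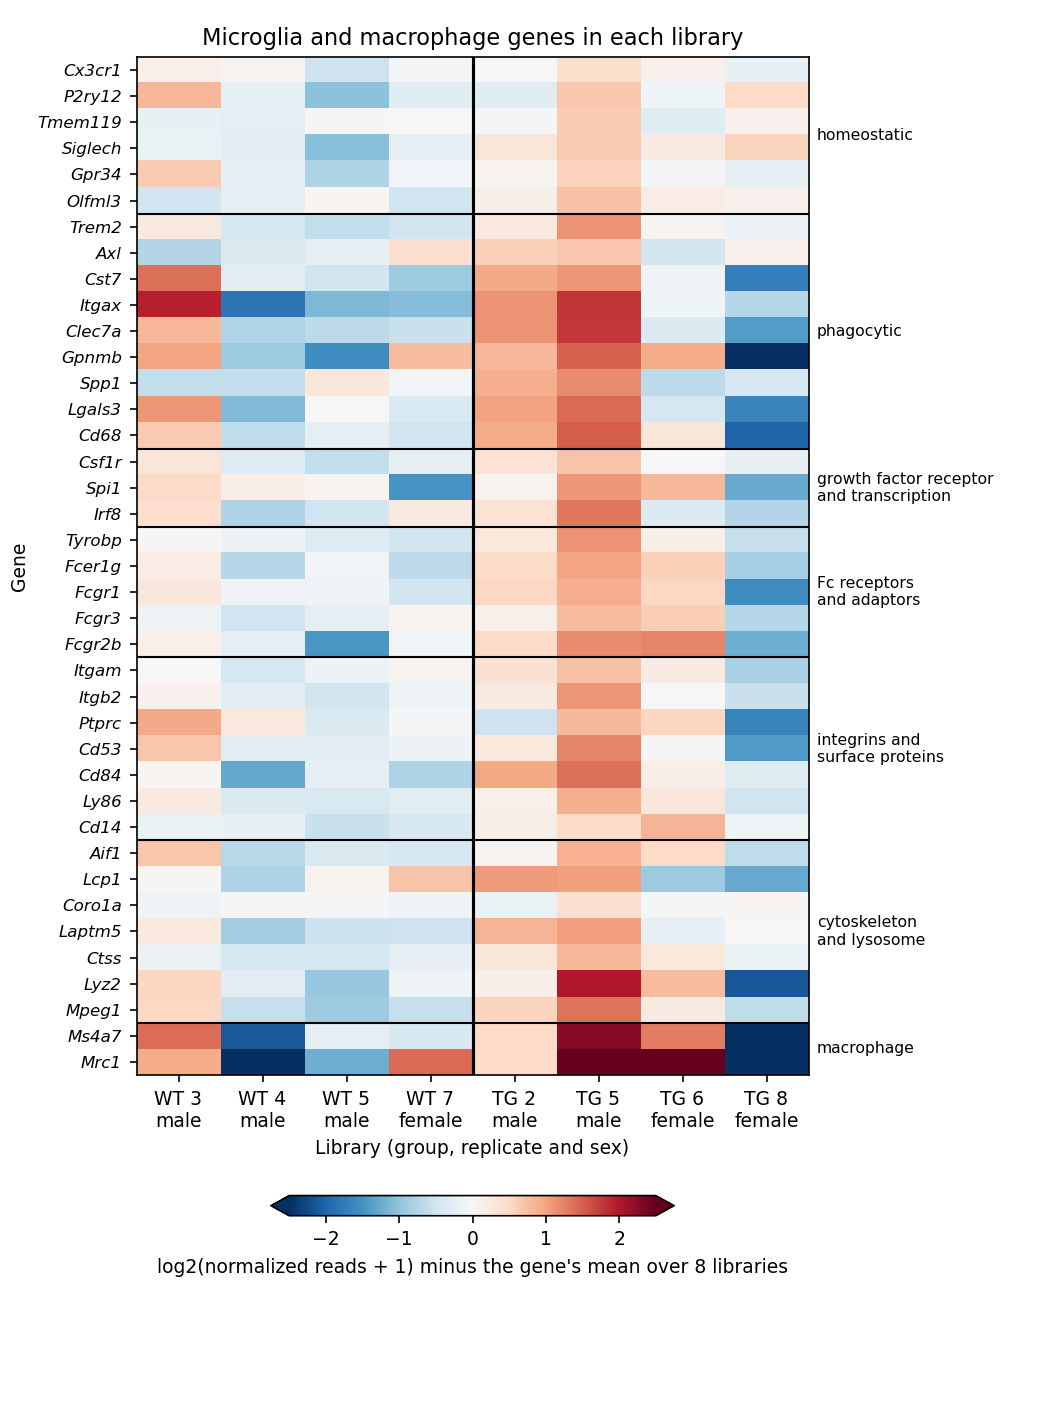
Deviation of log2(normalized reads + 1) from each gene's mean over 8 libraries (color; red above, blue below), for 39 genes (rows, grouped by role) in 4 WT and 4 TG libraries (columns, with sex). TG 5 is red for all 39 genes, TG 8 is blue for most genes outside the homeostatic group, and WT 3 is the reddest WT column.

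Among the genes of resting microglia, 6 of 6 had a positive log2 fold change, with a median of 0.29. Siglech, a sialic acid-binding lectin of microglia on chromosome 7 (mm10, 55768177 to 55778925), had 201, 183, 107 and 192 normalized reads in WT 3, 4, 5 and 7. It had 276, 352, 263 and 329 in TG 2, 5, 6 and 8. Every TG library lay above every WT library, with group means of 171 ± 43.2 and 305 ± 42.5 (SD, n = 4 each). The log2 fold change was 0.87 ± 0.27 (SE), and it did not pass over all features (adjusted p = 0.918, limma).

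Olfml3, a secreted matrix-associated protein of microglia on chromosome 3 (103733698 to 103738001), had 2029, 2421, 2955 and 2027 normalized reads in WT 3, 4, 5 and 7. In TG 2, 5, 6 and 8 it had 3138, 4754, 3232 and 3057. The groups did not overlap, although the lowest TG library was close to the highest WT library. The TG difference was 0.58 ± 0.18 on the log2 scale (SE, with an adjusted p of 0.918 by limma), and 0.43 without TG 5, the highest library. Within WT, Olfml3 was highest in WT 5, where Siglech, P2ry12, Cx3cr1 and Gpr34 were at their lowest of the 8 libraries, while Tmem119 was lowest in TG 6. Which cells the Olfml3 reads came from was not tested.

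For the best known markers of the resting state the groups overlapped. P2ry12 had 1003, 481, 278 and 455 normalized reads in the WT libraries 3, 4, 5 and 7 and 457, 903, 521 and 794 in TG 2, 5, 6 and 8, so WT 3 was the highest of all. On the log2 scale TG differed from WT by 0.37 ± 0.34 (SE), 0.71 without WT 3, 0.09 without WT 5 and -0.03 without both TG 5 and TG 8. Tmem119 averaged 558 ± 44.8 in WT against 665 ± 198 for TG (SD, n = 4 per group), and its highest value, 947, was in TG 5. The difference, a log2 fold change of 0.21 ± 0.21 (SE), was 0.03 without TG 5 and -0.06 without both TG 5 and TG 8. Cx3cr1 had 232 ± 43.3 and 261 ± 49.0, and Gpr34, a lysophosphatidylserine receptor gene, had 306 ± 128 and 334 ± 86.3 (SD, n = 4 each). Their log2 fold changes were 0.17 ± 0.25 and 0.19 ± 0.30 (SE), and the groups overlapped for both. Without WT 5, Gpr34 stood at -0.04 and Cx3cr1 at 0.03, without TG 5 at 0.02 and 0.06, and Gpr34 at 0.43 without WT 3.

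Of 9 genes of the phagocytic state, 9 had a positive log2 fold change, with a median of 0.46, and the groups overlapped for all 9. Trem2, a lipid receptor that signals through Tyrobp, had 592.6, 371.0, 326.6 and 355.8 normalized reads in WT 3, 4, 5 and 7 and 589, 1091, 524 and 453 in TG 2, 5, 6 and 8. All TG libraries lay above WT 4, 5 and 7, while WT 3 exceeded 3 of them. Its log2 fold change was 0.64 ± 0.28 (SE, with an adjusted p of 0.918 by limma), 0.38 without TG 5 and 0.83 without WT 3. Axl, a receptor tyrosine kinase that binds dying cells through the bridging protein Gas6, had 271, 353, 380 and 605 in WT and 679, 724, 326 and 489 in TG, in the same order of libraries. TG 2 and TG 5 exceeded all WT libraries, and TG 6 lay below all WT libraries but WT 3. The fitted log2 fold change was 0.46 ± 0.30 (SE), 0.69 without TG 6 and 0.29 without WT 3.

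The lysosomal and secreted members were spread widely within TG. Cd68, a lysosomal glycoprotein of phagocytes, had 797, 324, 427 and 359 normalized reads in WT 3, 4, 5 and 7 and 969, 1439, 622 and 126 in TG 2, 5, 6 and 8. TG 2 and TG 5 held the 2 highest values and TG 8 the lowest of all 8. Its log2 fold change of 0.37 ± 0.58 (SE) was -0.07 without TG 5, 0.12 without TG 2, 0.21 without WT 4, 0.65 without WT 3 and 1.10 without TG 8. Spp1, or osteopontin, a secreted phosphoprotein that ganglion cells also make, had 799, 798, 1499 and 1177 in WT and 2298, 2773, 779 and 920 in TG. Here TG 2 and TG 5 exceeded every other library and TG 6 was the lowest. The TG difference was 0.51 ± 0.37 on the log2 scale (SE), 0.20 without TG 5, 0.29 without TG 2 and 0.81 without TG 6.

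Gpnmb, a transmembrane glycoprotein of lysosome-rich phagocytes and of pigment cells, had 2199, 594, 378 and 1910 normalized reads in WT 3, 4, 5 and 7 and 1966, 3059, 2104 and 187 in TG 2, 5, 6 and 8. The pigment cell gene Dct, an enzyme of melanin synthesis, was highest in WT 3, WT 7 and TG 6, at 4128, 3124 and 2517, and lowest in TG 8, at 537, while TG 5, the highest for Gpnmb, had 1064. The part of pigment cells in the Gpnmb values was not tested. Lgals3, the gene of galectin-3, ranged from 293 to 1365 in WT and from 202 to 1692 in TG, with log2 fold changes of 0.18 ± 0.59 for Lgals3 and 0.33 ± 0.76 for Gpnmb (SE). Without TG 5 these were -0.27 and -0.10, without TG 2 they were -0.13 and 0.11, and without WT 4 -0.16 and 0.09. They were 0.58 and 0.72 without WT 3 and 0.75 and 1.24 without TG 8. Gpnmb stood at -0.13 without WT 5 and at -0.00672 with eye as a term. The 3 phagocytic genes with the lowest level per length were Cst7, a cysteine protease inhibitor, Itgax, an integrin subunit, and Clec7a, the beta-glucan receptor, at 67.5, 13.6 and 25.1 normalized reads per kilobase of exon (GENCODE M21). WT 3 held 139, 167 and 91.1 reads of them against 11.0 to 44.2 in the other WT libraries. In TG they reached 114, 148 and 175 in TG 5 and were at 15.6, 25.4 and 18.5 in TG 8. Their log2 fold changes were 0.12, 1.05 and 0.57, and without WT 3 they were 0.60, 1.87 and 0.94. Without TG 5 they were -0.23, 0.63 and 0.07, and without TG 8 0.70, 1.46 and 1.13. Itgax stood at 0.60 without WT 4 and Clec7a at 0.29 without TG 2. With edgeR on recovered reads the log2 fold change was 0.54 for Itgax, 0.91 for Clec7a, 0.20 for Cst7, 0.74 for Cd68, 0.53 for Gpnmb and 0.41 for Lgals3.

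**Figure D3:**
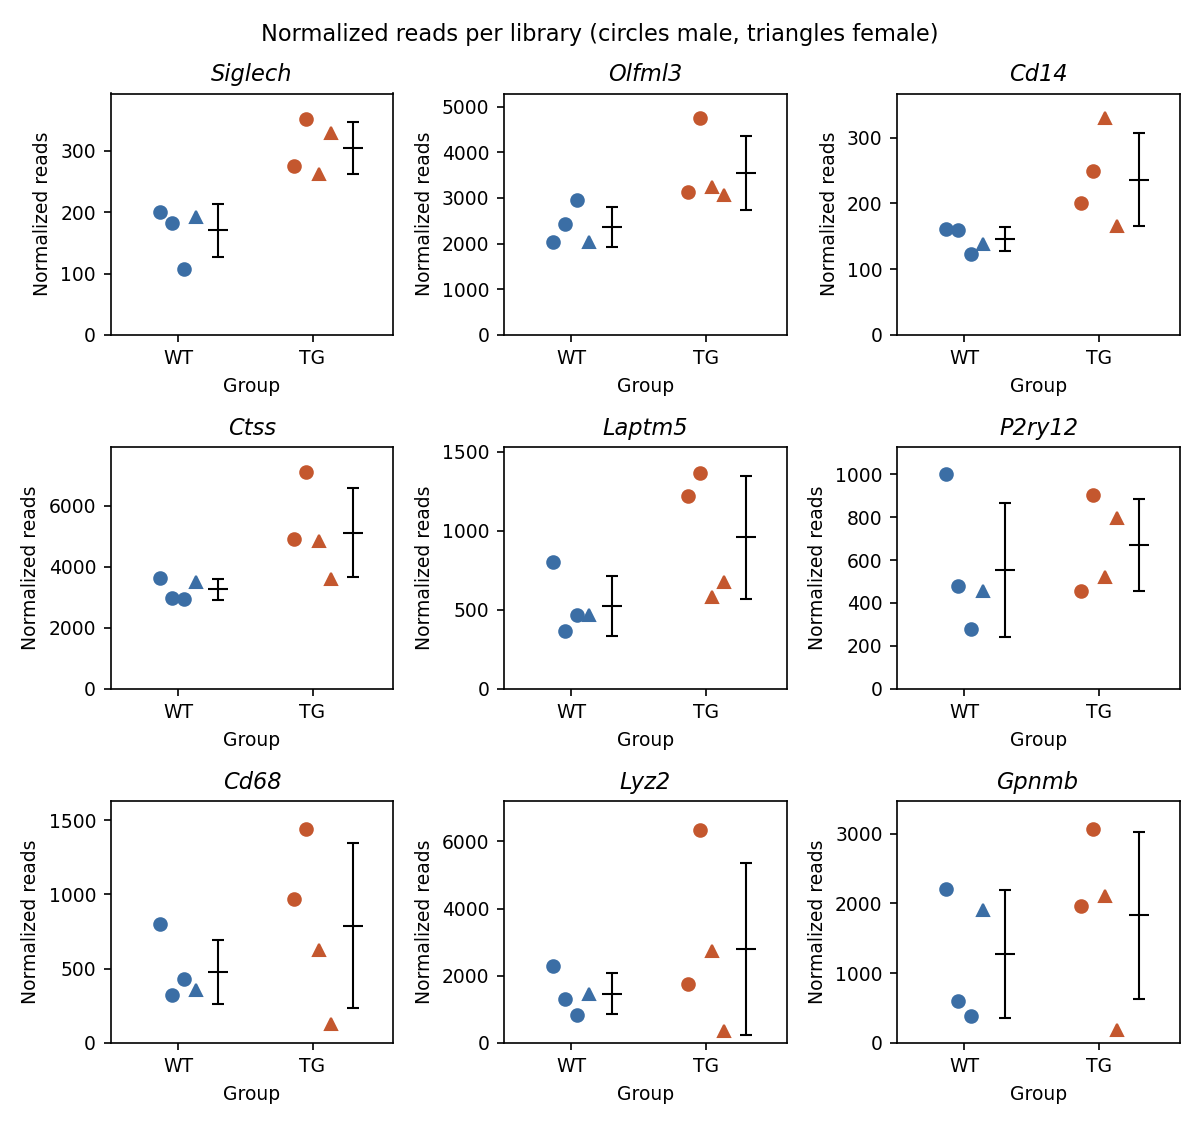
Normalized reads per library (y axis, from 0) for 9 genes in WT and TG (x axis); circles are males, triangles females, and the black mark with bars is the group mean ± SD (n = 4). The TG points lie above all WT points for Siglech, Olfml3 and Cd14, while for Cd68, Lyz2 and Gpnmb the TG points run from below the lowest to above the highest WT point.

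Whether the phagocytic genes differed more than the homeostatic ones depended on which libraries and terms were used. The median log2 fold change of the phagocytic genes exceeded that of the homeostatic genes by 0.17, and that difference was -0.11 without TG 2, -0.06 without TG 5 and 0.52 without TG 8. In males only it was 0.85, with medians of 1.30 for the phagocytic and 0.44 for the homeostatic genes. A term for sex gave 0.38, a term for eye 0.02 and edgeR 0.27, and it was 0.36 without both TG 5 and TG 8. Per library, the mean log2 deviation of the homeostatic genes was 0.03, 0.62, 0.0075 and 0.14 in TG 2, 5, 6 and 8, with a TG mean of 0.20 ± 0.29 against -0.20 ± 0.28 in WT (SD, n = 4 each). For the phagocytic genes it was 0.85, 1.34, -0.09 and -1.16 in the same libraries, with 0.23 ± 1.10 in TG and -0.23 ± 0.62 in WT. TG 8 thus combined homeostatic genes slightly above their mean with the lowest phagocytic level of the 8 libraries. The phagocytic minus homeostatic value was 0.03 ± 0.98 in TG and -0.03 ± 0.45 in WT (SD, n = 4 each), from -1.30 in TG 8 to 0.83 in TG 2, and from -0.58 in WT 4 to 0.52 in WT 3. The WT range lay inside the TG range, and the difference between the groups was far smaller than the spread within either. Without TG 5 the medians were 0.13 for the homeostatic and 0.07 for the phagocytic genes, and without both TG 5 and TG 8 they were 0.12 and 0.48. The homeostatic median was 0.47 without WT 3 and 0.16 without WT 5, and the phagocytic median was 0.80 without TG 8, 0.69 without TG 6 and 0.29 without TG 2.

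**Figure D4:**
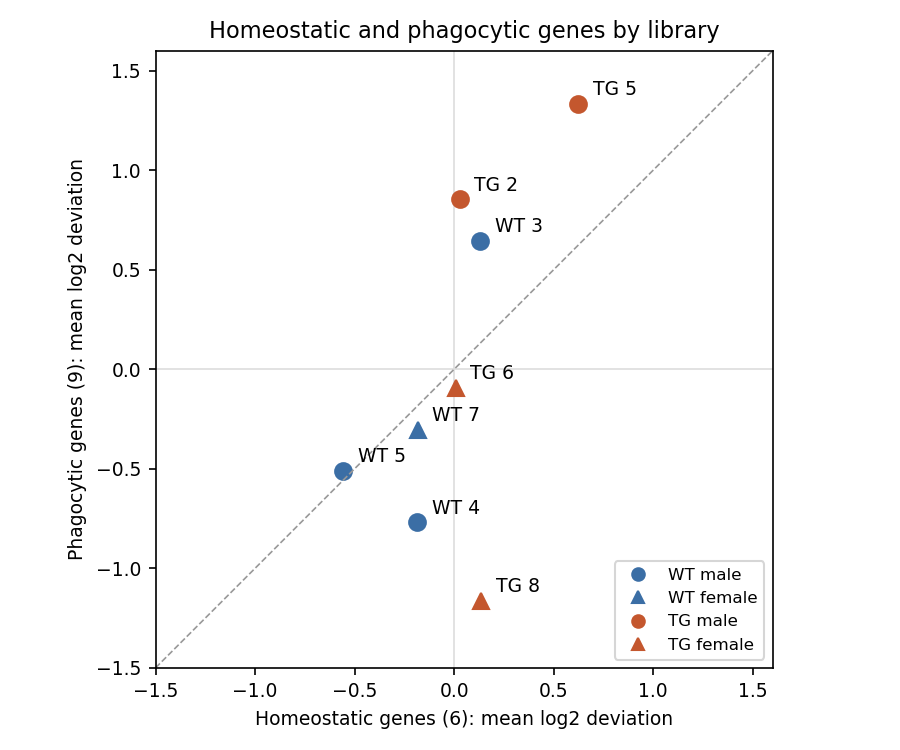
Mean log2 deviation of 9 phagocytic genes (y axis) against that of 6 homeostatic genes (x axis), one point per library (blue WT, orange TG, circles male, triangles female), with a dashed line where the values are equal. TG libraries span -1.16 to 1.34 on the y axis and 0.0075 to 0.62 on the x axis, with TG 8 far below and TG 5 and TG 2 far above the line.

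The growth factor receptor and the 2 transcription factors of the lineage had positive log2 fold changes with overlapping groups. Csf1r, the receptor for the survival factors Csf1 and Il34, had 1495, 972, 796 and 1026 normalized reads in WT 3, 4, 5 and 7 and 1569, 2009, 1218 and 1071 in TG 2, 5, 6 and 8. Its row in the table also carries Mir6983. All TG libraries exceeded WT 4, 5 and 7, and TG 6 and TG 8 lay below WT 3. The log2 fold change was 0.45 ± 0.23 (SE, with an adjusted p of 0.918 by limma), and 0.28 without TG 5. Spi1, which encodes the factor PU.1, had 250, 203, 188 and 64.3 in WT and 190, 384, 321 and 74.1 in TG. WT 7 and TG 8, both female, held the 2 lowest values and TG 6, also female, the second highest. Its log2 fold change of 0.37 ± 0.52 (SE) was -0.05 without WT 7, 0.07 without TG 5, 0.59 without WT 3 and 0.86 without TG 8. Irf8, a partner of PU.1, stood at 0.31 ± 0.46 (SE), at -0.08 without TG 5, 0.50 without WT 3 and 0.60 without TG 8.

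Because PU.1 and Irf8 bind the promoters of many genes of this lineage, windows of 300 bases around the transcription starts (250 before and 50 after, RefSeq, GRCm38.p6) were searched on both strands. The strings were GAGGAAGT, a PU.1 core, and GGAA followed by 2 bases of any kind and GAAA, a composite of PU.1 and an interferon regulatory factor, and matches of the 2 may overlap at their GGAA. Of the 39 genes, 32 had a window. The PU.1 string was found for 3 of 32 genes (9.38%; Ctss, Spp1 and Cd53), against 3.69% of 27025 genes, and the composite for 3 (9.38%; Cd68, Clec7a and Fcgr2b), against 3.16%. By window these were 7.5% and 10.0% of 40, against 3.2% and 2.72% of all 32851. These are matches of letters, not sites of binding. The windows of Ctss, Spp1 and Cd68 are shown because these 3 genes carry results here, each read 5′ to 3′ on the gene's strand with the match in capitals. Ctss is on the plus strand at chr3:95526536-95526835 and its match is to the reverse complement of the PU.1 string. Spp1 is on the plus strand at chr5:104434861-104435160, and its second start has no match. Cd68 is on the minus strand at chr11:69666121-69666420 and its match is to the reverse complement of the composite.
Ctss: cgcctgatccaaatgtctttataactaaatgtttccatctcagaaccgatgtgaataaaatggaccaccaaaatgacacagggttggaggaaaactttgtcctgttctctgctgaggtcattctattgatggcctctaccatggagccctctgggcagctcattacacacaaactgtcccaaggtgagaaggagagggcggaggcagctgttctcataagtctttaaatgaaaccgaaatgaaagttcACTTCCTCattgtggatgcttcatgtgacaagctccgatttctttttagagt
Spp1: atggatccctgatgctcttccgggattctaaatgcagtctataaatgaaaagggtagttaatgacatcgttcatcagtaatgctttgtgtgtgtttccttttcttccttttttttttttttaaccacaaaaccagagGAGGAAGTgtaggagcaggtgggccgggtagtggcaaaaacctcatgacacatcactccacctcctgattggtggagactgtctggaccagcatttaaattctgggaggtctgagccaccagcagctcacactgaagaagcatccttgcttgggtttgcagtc
Cd68: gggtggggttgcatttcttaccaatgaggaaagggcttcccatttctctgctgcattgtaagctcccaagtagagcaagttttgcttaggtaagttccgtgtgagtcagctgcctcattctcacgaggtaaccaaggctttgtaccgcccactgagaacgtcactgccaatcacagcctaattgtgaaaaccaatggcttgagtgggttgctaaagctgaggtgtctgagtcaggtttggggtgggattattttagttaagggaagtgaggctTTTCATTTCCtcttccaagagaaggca

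Fc receptors and their adaptors followed the same pattern, with 5 of 5 positive and a median log2 fold change of 0.48. Fcer1g, the gamma chain that Fc receptors need to signal, had 1429, 764, 1197 and 797 normalized reads in WT 3, 4, 5 and 7 and 1721, 2488, 1891 and 697 in TG 2, 5, 6 and 8. TG 2, 5 and 6 exceeded every WT library, while TG 8 lay below them all. The log2 fold change was 0.61 ± 0.33 (SE), 0.38 without TG 5 and 0.99 without TG 8. Tyrobp, the adaptor of Trem2, had 1261, 1111, 985 and 876 in WT and 1491, 2683, 1368 and 834 in TG, which is the same order of TG libraries except for TG 2 and TG 6. On the log2 scale TG differed from WT by 0.48 ± 0.28 (SE), 0.19 without TG 5 and 0.75 without TG 8. For the receptors themselves the log2 fold changes were 0.19 ± 0.47 for the activating Fcgr1, 0.40 ± 0.31 for Fcgr3 and 0.82 ± 0.54 for the inhibitory Fcgr2b (SE). Without TG 5 these were -0.08, 0.20 and 0.57, and without TG 8 they were 0.74, 0.71 and 1.37. Fcgr1 stood at 0.31 without WT 3 and Fcgr2b at 0.47 without WT 5. Fcgr2b and Fcgr3 are similar in sequence, and reads they share could have been split by the counting, which is not described in the sources used here.

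Surface proteins of leukocytes included the third gene whose groups did not overlap and the gene with the most negative value. Cd14, a co-receptor for bacterial lipopolysaccharide, had 162, 160, 123 and 138 normalized reads in WT 3, 4, 5 and 7 and 200.3, 249, 330 and 166 in TG 2, 5, 6 and 8. The gap between the highest WT and the lowest TG library was small. The log2 fold change was 0.66 ± 0.28 (SE, with an adjusted p of 0.918 by limma). Cd84, a receptor of the SLAM family, had 65.5, 25.8, 55.0 and 37.0 in WT and 125, 167, 71.6 and 51.7 in TG, so that only TG 8 lay within the WT range. By limma its log2 fold change was 1.11 ± 0.48 (SE). Ptprc, the leukocyte phosphatase CD45, had 264, 164, 106 and 135 in WT and 95.7, 241, 198 and 42.9 in TG. TG 8 and TG 2 were the 2 lowest of the 8 libraries, and the log2 fold change of -0.41 ± 0.50 (SE) was 0.07 without TG 8, -0.16 without WT 3 and -0.75 without TG 5. The integrin subunits Itgam and Itgb2, which form complement receptor 3, had log2 fold changes of 0.26 ± 0.31 and 0.38 ± 0.31 (SE), 0.06 and 0.08 without TG 5, and 0.58 and 0.63 without TG 8. Ly86, which pairs with a Toll-like receptor homolog, stood at 0.41 ± 0.25 (SE), 0.17 without TG 5 and 0.64 without TG 8. The tetraspanin Cd53 stood at 0.02 ± 0.48 (SE), -0.39 without TG 5, 0.25 without WT 3 and 0.49 without TG 8.

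Ctss and Laptm5, both of the lysosome, had the smallest p among the cytoskeletal and lysosomal genes. Ctss, the protease cathepsin S on chromosome 3 (95526783 to 95556405), had 3622, 2977, 2958 and 3496 normalized reads in WT 3, 4, 5 and 7 and 4909, 7115, 4856 and 3601 in TG 2, 5, 6 and 8. Only TG 8 reached the WT range, just below WT 3. The fitted log2 fold change was 0.61 ± 0.18 (SE, with an adjusted p of 0.918 by limma), and 0.44 to 0.77 without any 1 library. Laptm5, a lysosomal membrane protein of blood-derived cells on chromosome 4 (130913134 to 130936148), had 801, 368, 465 and 469 in WT and 1221, 1361, 580 and 673 in TG. WT 3 exceeded TG 6 and TG 8, and the log2 fold change was 0.83 ± 0.30 (SE). Ctss also had the highest level per length of the list, at 3087 normalized reads per kilobase of exon (GENCODE M21), followed by Tyrobp at 1988, Lyz2 at 1620 and Fcer1g at 1571, while Mrc1 had the lowest, at 6.88.

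Other members of this group were more variable. Lyz2, lysozyme M, had 2296, 1294, 820 and 1448 normalized reads in WT 3, 4, 5 and 7 and 1745, 6351, 2739 and 361 in TG 2, 5, 6 and 8. TG 5 held the highest and TG 8 the lowest value, with group means of 1464 ± 615 and 2799 ± 2561 (SD, n = 4 each) and a log2 fold change of 0.41 ± 0.63 (SE). It was -0.19 without TG 5, 0.16 without WT 5, 0.66 without WT 3, 1.19 without TG 8 and 0.94 with edgeR. Lyz2 is near-identical to Lyz1 over much of its length, so shared reads are an uncertainty. Mpeg1, the pore-forming perforin-2 of phagosomes, stood at 0.75 ± 0.37 (SE), 0.43 without TG 5. Aif1, the gene of the microglia stain Iba1, stood at 0.39 ± 0.35, with WT 3 at 728 and TG 5 at 819 against 279 to 636 in the other 6 libraries, and at 0.69 without WT 3, 0.67 without TG 8 and 0.17 without TG 5. The actin-bundling gene Lcp1 stood at -0.04 ± 0.54 and the actin regulator Coro1a at 0.13 ± 0.16 (SE). Coro1a had the smallest SE of the list, averaged 1051 ± 30.2 for WT against 1163 ± 212 for TG (SD, n = 4 per group), and stood at -0.04 without both TG 5 and TG 8. Lcp1 was positive under several other settings, from 0.01 with upper-quartile scaling to 1.26 in males.

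The 2 macrophage genes had low and scattered values. Ms4a7, a membrane protein of macrophages that is low in resting microglia, had 115, 9.21, 35.9 and 32.2 normalized reads in WT 3, 4, 5 and 7 and 61.2, 211, 106 and 5.85 in TG 2, 5, 6 and 8. Mrc1, the mannose receptor of perivascular macrophages, had 26.6, 0, 5.28 and 38.0 in WT and 19.5, 81.0, 180 and 0 in TG. Both were lowest in WT 4 and TG 8, Ms4a7 was highest in TG 5 and WT 3, and Mrc1 in TG 6 and TG 5. Their log2 fold changes were 0.69 ± 0.97 and 1.37 ± 1.55 (SE), with 95% intervals from -1.40 to 2.77 and from -1.96 to 4.71. Ms4a7 stood at 0.04 without TG 5, 0.10 without WT 4, 1.27 without WT 3 and 1.70 without TG 8, and Mrc1 at 0.39 without TG 6, 0.31 without WT 4 and 2.89 without TG 8.

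Sex was unequal between the groups, so males were also compared alone. In the 3 WT and 2 TG males, 38 of 39 genes lay higher in TG with a median log2 fold change of 0.90, against 0.01 over all features. In 20 of the 39 both TG males exceeded all 3 WT males, where 9.81% of all features did. At an unadjusted p under 0.05 there were 24 genes, against 2.34% of all features, and 0 passed the adjusted threshold in limma. The smallest p was that of Spp1, with a log2 fold change of 1.36 in males (adjusted p = 0.466, limma), and Cd68 and Laptm5 stood at 1.30 and 1.32. Among females there was 1 WT library, so values only are given. The log2 difference between the mean of TG 6 and TG 8 and WT 7 was -0.47 for Spp1, -0.36 for Cd68 and 0.41 for Laptm5. It was positive for Siglech (0.61), Olfml3 (0.63) and Cd14 (0.75). Both TG females lay below WT 7 for 5 of the 39 genes, against 35.5% of all features.

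The difference between the sexes in the TG effect did not pass for any gene of the list. The interaction term of genotype and sex in limma (the TG minus WT difference in females minus that in males) was below 0 for 36 of 39 genes, where it was for 52.3% of all features, with a median of -0.86 against -0.05 over all features. At an unadjusted p under 0.05 there were 5 genes, Lcp1, Spp1, Axl, Irf8 and Gpnmb, all with a lower difference in females, where 6.34% of all features had one in that direction and 11.8% in either. The share of the list is thus close to that of all features in either direction, and 0 passed the adjusted threshold, which 0.00505% of all features did. The term was -3.06 ± 0.71 for Lcp1, -1.83 ± 0.46 for Spp1 and -1.68 ± 0.46 for Axl (SE; adjusted p = 0.344, 0.344 and 0.345, limma). For the homeostatic genes Siglech and Olfml3 it was -0.37 ± 0.61 and -0.03 ± 0.37 (SE). The term rests on WT 7, the 1 WT female, and TG 5 and TG 2, the highest libraries, are the TG males, so sex and these libraries cannot be told apart. The median term of the list was -0.55 without TG 5, -0.42 without TG 8, -1.33 without TG 6 and -1.21 without WT 3. Without TG 6 there were 16 genes at an unadjusted p under 0.05, where 9.87% of all features passed in either direction, and without WT 3 there were 10, against 8.81%. There were 3 each without TG 5, WT 4 or WT 5, against 11.6%, 15.7% and 8.75%. Upper-quartile scaling moved the median term of all features to 0.14 and that of the list to -0.67.

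**Figure D5:**
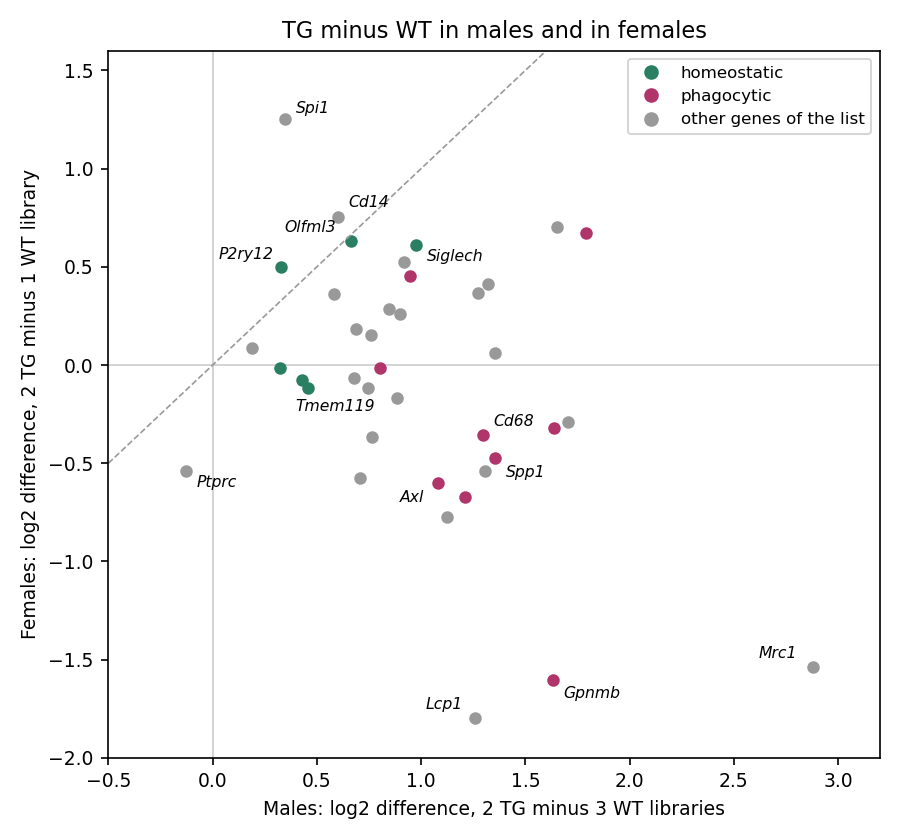
Log2 difference between TG and WT in females (y axis, 2 TG libraries minus 1 WT library) against that in males (x axis, 2 TG minus 3 WT libraries) for each of 39 genes (green homeostatic, pink phagocytic, gray others), with a dashed line where the values are equal. Of the points, 36 lie below the line, with Lcp1, Gpnmb and Mrc1 farthest below it.

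Other genes of these cells, from lists that are not restricted to microglia, also lay mostly higher in TG, and none passed the adjusted threshold (0 in each list, limma). Of 12 further genes of resting microglia 11 lay higher, with a median log2 fold change of 0.28. Those with the smallest p were Rnase4, a secreted ribonuclease that shares its row with Ang (0.37), Selplg, a selectin ligand (0.31), and the nucleotide receptors P2ry6 (0.66) and P2ry13 (0.54). Of 16 further genes of phagocytosis and lipid handling 14 lay higher, with a median of 0.22, and the groups did not overlap, with TG higher, for 3, Cd36, Apoe and Ctsz, against 1.36% of all features. The scavenger receptor gene Cd36 had 102, 99.4, 87.7 and 114 normalized reads in WT 3, 4, 5 and 7 and 389, 256, 188 and 317 in TG 2, 5, 6 and 8. Unlike most of the list, it was high in TG 8. Apoe, a lipid carrier made mostly by glia, stood at 0.57 ± 0.15, Ctsz, a lysosomal protease, at 0.35 ± 0.16 and Lpl, lipoprotein lipase, at 0.52 ± 0.28 (SE).

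The 3 subunit genes of the complement initiator C1q, which microglia make, had positive values too. C1qa, C1qb and C1qc had log2 fold changes of 0.26 ± 0.24, 0.37 ± 0.28 and 0.52 ± 0.24 (SE), each with its highest value in TG 5, at 10023, 11660 and 9582 normalized reads. In WT they ranged from 4001 to 6763, 4199 to 6684 and 3578 to 5211. In TG 8 they were at 4226, 3513 and 3633, so C1qb lay below all WT libraries there. TG 2 and TG 6 lay within the WT range for C1qa, at 5271 and 5267, and above it for C1qc, at 5907 and 7057. C3ar1, a complement receptor, stood at 0.81 ± 0.41 (SE). In the signalling and transcription list 16 of 17 tested genes lay higher, with a median of 0.34. Hcls1, a cortactin-like substrate of Lyn, averaged 626 ± 139 for WT against 1127 ± 244 for TG (SD, n = 4 per group), and TG 8, at 1337, was its highest library. The guanine exchange factor gene Vav1 stood at 1.11 ± 0.45, the transcription factor gene Irf5 at 0.82 ± 0.38 and Mef2c, another factor, at -0.57 ± 0.34 (SE). Of 11 tested genes of survival and recruitment signals 9 lay higher, with a median of 0.27. The ligand gene Csf1 stood at 0.88 ± 0.42, averaging 76.4 ± 34.5 normalized reads for WT against 136 ± 39.3 for TG (SD, n = 4 per group), the fractalkine gene Cx3cl1 at 0.32 ± 0.19, the cytokine gene Tgfb1 at 0.47 ± 0.31 and the granulocyte-macrophage receptor gene Csf2ra at 0.27 ± 0.26 (SE). Of 7 tested genes of border-associated macrophages 5 lay higher. The reductase gene Cbr2 stood at 1.98 ± 1.04, the scavenger receptor gene Stab1 at 0.54 ± 0.40, Lyve1, a hyaluronan receptor gene, at -0.38 ± 0.43 and the chemokine gene Pf4 at 0.44 ± 1.23 (SE).

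Markers of other blood-derived cells were low in sum, apart from neutrophil markers in WT 4. The summed level of 6 monocyte markers was 133 to 189 normalized reads in WT and 81.0 to 321 in TG, highest in TG 6, and their receptor Ccr2 lay between 0 and 17.4. The 10 neutrophil markers summed to 81.9 to 2153 in WT, highest in WT 4 and next in WT 5, at 574. In TG they summed to 62.4 to 261, and Ly6g and Elane were at 0 in all 8 libraries. The calgranulin gene S100a9 was at 1024 in WT 4 against 21.5 to 278 in the other libraries. The 10 markers of T and natural killer cells summed to 79.8 to 138 in WT and 91.4 to 208 in TG, with Cd3e and Ncr1 at 0 throughout. The 6 B cell markers summed to 85.6 to 123 and 31.2 to 192, and the 6 dendritic cell markers to 41.4 to 121 and 54.6 to 138. Of the tested neutrophil markers 0 of 3 lay higher in TG (median log2 fold change -1.9), and of the monocyte markers 2 of 5 (-0.54). For T and natural killer cells it was 3 of 3 (0.23), for B cells 1 of 3 (-0.36) and for dendritic cells 1 of 2 (0.0081). The 39 genes of the list summed to 19610 to 30060 in WT and 19560 to 54370 in TG. That sum is over more genes and none of these sums is adjusted for gene number or length, so they do not compare amounts of cells.

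Markers of retinal and neighbouring tissue moved with single libraries. The 9 Mueller glia markers summed to 222900 to 300500 in WT and 267000 to 352000 in TG. Of them 5 lay higher and 4 lower in TG, with a median log2 fold change of 0.07. Apoe, also counted above with phagocytosis and lipid handling, had the highest level of the 9, with means of 100070 in WT and 147690 in TG. The 7 endothelial and pericyte markers were all lower in TG, with a median of -0.35, 18010 to 27080 in WT and 16340 to 22000 in TG. The 5 red blood cell markers summed to 2635 to 39040 in WT and 14470 to 27130 in TG. WT 4 and TG 8, with the lowest microglia and macrophage level of their groups, held 2635 and 27130. TG 5, with the highest level, held 15560. The part of these tissues in the values of the list was not tested.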

How the data were processed

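RNA was measured by stranded poly(A) RNA-seq in 8 retinas. The authors deposited 1 table of counts divided by size factors, a normalized signal, made with STAR 2.4.0, SAMtools, Picard, FastQC and DESeq2 per the submitters' processing notes. These name mm10 and GRCm38. How reads were assigned to genes, with which annotation and whether by strand, is unstated in the labels and notes. Every value was a whole multiple of what 1 read is worth in its library (100.0% within 0.01 of a whole number), so reads were recovered. Of the positive recovered values 62.6% to 64.1% were even, so a read may not be an independent fragment. No pair of libraries agreed within sampling noise (lowest chi-square per feature 46.1).

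TG was compared with WT by limma 3.58.1 (trend) on log2(value + 1), a scale that understates changes of low genes, over 19798 features with a mean of at least 10, with Benjamini-Hochberg adjustment over all of them. The threshold was 0.05. An interaction with sex was fitted the same way. Alternatives used TMM and upper-quartile scaling, pseudocounts of 0.5 and 5, a minimum mean of 50 or no filter, a term for eye or for sex, the males alone, edgeR 4.0.16 and DESeq2 1.42.0 on recovered reads, and fits without single libraries or pairs of them. On simulated data for TG against WT (19276 features), the share of changed features that the test called was 39.0% for 2-fold and 73.0% for 4-fold changes, 100 of each, and it called 6 unchanged ones. The changed features were drawn from those with a mean of at least 50, so these shares do not cover lower genes. Each feature varied independently, so shifts shared by many genes of 1 library were not simulated.

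The members and lists were chosen with earlier results of these data known. All 39 members are named. The rule gives per-library values for the 2 genes of each role with the smallest p and for those whose groups did not overlap, and up to 4 genes with the smallest p of each other list. Values per library of P2ry12, Cd68, Spp1, Gpnmb, Lyz2, Cst7, Itgax, Clec7a, Ptprc, Dct and S100a9 were added after their values were seen. Gene models came from GENCODE M21 and promoters from RefSeq. The human transferrin transcript was not analysed here. One marker list of the retina is not reported here.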

Additional observations from a re-analysis of the deposited data

Results flagged for a closer look

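Of 78 sets of 4 values (39 genes in each group), 9 held a library far from the other 3 of its group, with a gap to its nearest neighbour above Dixon's 95% critical value for 4 samples. Chance gives this in about 1 in 20 independent sets. The 78 sets come from the same 8 libraries and are not independent, so their count cannot be set against that share. In WT it was WT 3 each time, the highest library, with 592.6 normalized reads of Trem2, 139.2 of Cst7, 166.8 of Itgax, 91.09 of Clec7a, 220.0 of Cd53, 1450 of Ly86, 727.7 of Aif1 and 2417 of Mpeg1. In TG it was TG 5, with 4754 normalized reads of Olfml3.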

How the results depend on the processing

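No member passed an adjusted p of 0.05 under any alternative run, the lowest adjusted p being 0.34. The count of all features called for TG against WT was 1 with a pseudocount of 0.5, with no filter, with a minimum mean of 50, with sex as a term and without both TG 5 and TG 8 (the last chosen after seeing the data), 4 in males only, 16 with DESeq2 and 1 to 3 without any 1 library. Members with an unadjusted p under 0.05 numbered 24 in males only and 3 to 22 without any 1 library. The phagocytic minus homeostatic difference in median log2 fold change ran from -0.11 to 0.52 without any 1 library, and was 0.85 in males only, 0.38 with sex as a term and 0.02 with eye as a term. For the interaction with sex, 2 features were called with upper-quartile scaling or a pseudocount of 5, 0 with no filter, and 0 to 1 without any 1 library. The interaction was not run without WT 7, the 1 WT female, since the term cannot be estimated then. The log2 fold change of Gpnmb was -0.00672 with eye as a term. That of Lcp1 was 0.0103 with upper-quartile scaling, 0.17 with sex as a term, 1.26 in males only, 0.25 with edgeR, 0.24 with DESeq2, 0.27 without both WT 3 and TG 6 and 0.0531 without both TG 5 and TG 8. Without both TG 5 and TG 8, P2ry12 stood at -0.0272, Tmem119 at -0.0615 and Coro1a at -0.041. For 12 members the sign changed without some 1 library, and the log2 fold change then ran from -0.0389 to 0.43 for Gpr34, -0.23 to 0.70 for Cst7, -0.13 to 1.24 for Gpnmb, -0.27 to 0.75 for Lgals3, -0.0735 to 1.09 for Cd68, -0.0525 to 0.86 for Spi1. It was -0.0812 to 0.60 for Irf8, -0.0835 to 0.74 for Fcgr1, -0.75 to 0.0746 for Ptprc, -0.39 to 0.49 for Cd53, -0.40 to 0.37 for Lcp1 and -0.19 to 1.19 for Lyz2. Of 506 values of single members under the other settings, 495 kept their direction, and of 312 without 1 library, 288 did. The cause was not tested. No paired analysis was made, because the labels give no pairing of WT with TG retinas. The replicate number 5 occurs in both groups, and nothing in the labels links the 2 samples. Depth was similar in all libraries, and low genes such as Mrc1 and Ms4a7 are limited by few reads.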
